A study of Mus musculus with 15 samples.

Results

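The genes described here are 55 genes of cell division and DNA replication, taken by symbol from the 33340 genes of the count table after its Ensembl identifiers were matched to GENCODE M21 names. All 55 were found and all 55 passed the filter on low counts, which left 17457 genes for testing. They were sorted by the phase in which their products are known to act into 22 replication genes and 28 mitotic genes. The remaining 5, Mki67, Ccna2, Mybl2, Melk and Stmn1, were kept apart because their expression or role spans both phases.

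A cell that leaves quiescence first licenses its replication origins by loading the ring-shaped MCM2-7 helicase, then copies its DNA with polymerases held on by the PCNA clamp, and only later builds a spindle and divides under the control of CDK1 with cyclin B. Genes of licensing and DNA copying are classically under E2F factors, and genes of spindle building and division under the DREAM and FOXM1 complexes, which reach promoters through a short element named the CHR and through CCAAT boxes bound by NF-Y. In the healthy adult lung few cells divide. Bleomycin breaks DNA, and the injured epithelium, the infiltrating leukocytes and the expanding fibroblasts are the cells usually seen to proliferate afterwards.

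Whole lungs of C57BL/6 male mice aged 10 to 12 weeks were profiled by bulk RNA-seq after intratracheal bleomycin at 5 U/kg. By their titles, libraries were from day 0 without bleomycin (n = 4), day 7 (n = 4), day 14 (n = 4) and day 21 (n = 3). The design text of the series gives fewer replicates for each time point than the titles of days 0, 7 and 14 do, and each n here follows the titles. The day 0 mice are the only controls analysed here, so time since instillation and bleomycin cannot be told apart, and the 3 comparisons with day 0 share the same 4 libraries. The study's text speaks of biological replicates, and neither it nor the labels say that each library came from a separate animal, so p-values measure the spread between these samples. In whole tissue, fewer cells of a type and less RNA per cell cannot be told apart.

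RefSeq promoters of the GRCm38.p6 build, running from 250 bases before to 50 bases after the first listed start of each gene, were found for 45 of the 55 genes. None was matched for Ccna2, Ccne2, Aurkb, Kif20a, Tpx2, Esco2, Mcm4, Gins2, Foxm1 and Stmn1. The windows of 5 mitotic genes that rose strongly are shown because the same short words recur in them, and they were chosen with their matches known. Each window holds the 120 bases that end just before the start, on the strand of the gene. Capitals mark the words searched for, read on either strand. A CHR word has the letters TTTGAA. Its accepted variant is written TTTAAA. The box bound by NF-Y is the word that gives it its name, CCAAT, and on the opposite strand it reads ATTGG. An E2F word is TTTCCCGC, TTTGGCGC, TTTCGCGC or TTTGCCGC.

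Ccnb1 (chr13:100786487-100786606, minus strand): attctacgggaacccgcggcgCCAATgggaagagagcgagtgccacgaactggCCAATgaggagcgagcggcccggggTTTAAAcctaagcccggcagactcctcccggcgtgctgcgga
Cdk1 (chr10:69352913-69353032, minus strand): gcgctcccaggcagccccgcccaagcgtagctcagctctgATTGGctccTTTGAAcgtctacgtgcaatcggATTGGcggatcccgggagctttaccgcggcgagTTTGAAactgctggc
Plk1 (chr7:122159315-122159434, plus strand): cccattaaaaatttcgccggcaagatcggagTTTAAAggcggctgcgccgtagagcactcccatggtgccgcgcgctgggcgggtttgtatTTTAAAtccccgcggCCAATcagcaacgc
Top2a (chr11:99024190-99024309, minus strand): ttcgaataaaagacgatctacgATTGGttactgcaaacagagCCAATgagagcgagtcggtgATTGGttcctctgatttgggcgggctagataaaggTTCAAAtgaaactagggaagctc
Cdc20 (chr4:118437344-118437463, minus strand): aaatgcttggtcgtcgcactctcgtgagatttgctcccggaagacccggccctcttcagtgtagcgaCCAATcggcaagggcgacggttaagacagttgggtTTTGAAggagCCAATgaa

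The windows of 5 replication genes follow for comparison. They too were chosen with their matches known and carry CCAAT boxes but no CHR word in this stretch, and that of Mcm6 holds E2F words, of which a pair overlaps on opposite strands. Over all windows of this length, 9 of 24 mitotic and 3 of 18 replication genes held a CHR word, the latter being Mcm2, Ccne1 and E2f8. Rrm2 has one that begins at its start, just past the window printed.

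Mcm6 (chr1:128359706-128359825, minus strand): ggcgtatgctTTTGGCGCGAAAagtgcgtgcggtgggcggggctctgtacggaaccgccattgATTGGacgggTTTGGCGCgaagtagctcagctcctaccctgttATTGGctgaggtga
Mcm3 (chr1:20820313-20820432, minus strand): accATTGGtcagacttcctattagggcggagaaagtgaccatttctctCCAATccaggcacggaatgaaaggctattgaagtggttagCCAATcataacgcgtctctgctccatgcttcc
Mcm5 (chr8:75109389-75109508, plus strand): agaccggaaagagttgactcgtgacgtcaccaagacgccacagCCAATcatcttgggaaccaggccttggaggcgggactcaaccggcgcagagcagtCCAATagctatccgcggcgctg
Mcm7 (chr5:138171884-138172003, minus strand): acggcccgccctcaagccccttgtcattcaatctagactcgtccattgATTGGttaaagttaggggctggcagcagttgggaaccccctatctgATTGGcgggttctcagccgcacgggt
Rrm2 (chr12:24708134-24708253, plus strand): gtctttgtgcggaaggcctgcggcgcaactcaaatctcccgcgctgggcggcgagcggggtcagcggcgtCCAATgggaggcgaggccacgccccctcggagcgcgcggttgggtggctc

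Over the full 300 bases, a CHR word was present in 20 of 24 mitotic promoters (83.3%) and in 7 of 18 replication promoters (38.9%), against 27.8% of all 27025 promoters. A CCAAT box was present in 21 of 24 mitotic promoters (87.5%), 11 of 18 replication promoters (61.1%) and 37.9% of all promoters. E2F words went the other way. They were found in 1 of 24 mitotic promoters (4.17%), that of Cdk1, and in 7 of 18 replication promoters (38.9%), against 2.32% of all promoters. In the 150 bases around the start, from 100 before to 50 after, the CHR shares were 75% and 27.8% against 12.9% of all promoters. Such a match is a description of the letters and does not show a bound site. The plot of motif shares sets the 3 words side by side.

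**Figure D1:**
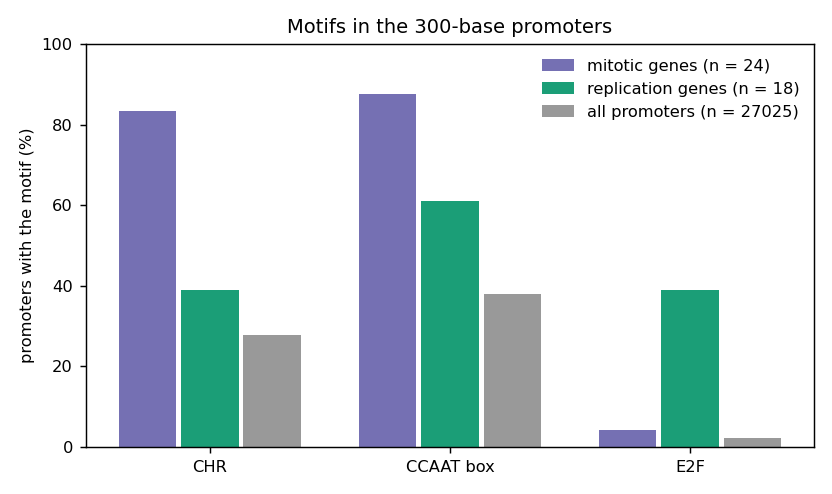
Share of 300-base RefSeq promoters, in percent, that hold a CHR word, a CCAAT box or an E2F word, for 24 mitotic genes, 18 replication genes and all 27025 promoters. CHR and CCAAT bars are tallest for mitotic genes (83.3% and 87.5%), and the E2F bar is tallest for replication genes (38.9%).

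Total counts ran from 15652008 to 18020661 per library, and single genes of the set had between 5 and 2204 reads in a library. Mitochondrial transcripts took 2.03 to 4.22% of counts and moved in part with the day. All 4 day 7 libraries, day 0 replicates 1 and 2 and day 14 replicate 1 lay below 2.5%. Day 0 replicates 3 and 4, day 14 replicates 2 to 4 and day 21 replicate 1 lay above 3.5%, and day 21 replicates 2 and 3 between these bounds. The labelled tissue showed its markers. All 4 alveolar type 2, 4 alveolar type 1 and 4 endothelial markers exceeded 1 CPM (the count rate of a gene after TMM scaling of library sizes) in every day 0 library. Cardiac muscle markers summed to 21.99 to 250 CPM at day 0 and 15.2 to 700 CPM at day 21, with all 5 listed genes in the table. Their source in these samples was not tested. The library titled as day 0 replicate 4 carries a treatment label that names bleomycin. It was kept as day 0, and the counts of the whole set and the calls that change without it are given beside the main ones.

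The cell cycle set rose broadly after bleomycin. At day 7, 48 of 55 genes were higher than at day 0 (edgeR quasi-likelihood test, adjusted p under 0.05 and fold change over 1.5), where 8.78% of all genes tested were higher. At day 14, 48 of 55 were higher, against 12% of all genes. At day 21, 39 of 55 were higher, against 12.4% of all genes, and 1 was lower, against 10.1% of all genes. Median log2 changes were 1.84, 2.19 and 1.28 at days 7, 14 and 21, while the medians of all genes tested were 0.01, 0.02 and 0.02. Without day 0 replicate 4, the genes called higher numbered 44, 47 and 37, where 6.82%, 10.6% and 10.8% of all genes were. The calls lost were those of Ccne2, Cenpa, Pcna and Cdt1 at day 7, Mcm6 at day 14 and Ccne2, Cenpa and Nusap1 at day 21, and Mcm10 was gained at day 21. Within the libraries of low mitochondrial share 47 genes were higher at day 7 (7.54% of all genes), and within those of high share 48 at day 14 (8.78% of all genes). Of the genes called, 40 of 48 at day 7 and 45 of 48 at day 14 were called in each of 18 alternatives, and 29 of 40 at day 21 in each of 16. These alternatives leave out the stricter glmTreat test.

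Markers of other cell types moved over the same days, at which 8.78% and 12% of all genes were higher and 7.36% and 11.2% lower. Fibroblast markers summed to 1094 to 1551 CPM at day 0, 3220 to 4084 CPM at day 7 and 2546 to 10220 CPM at day 14, with 2 of 5 higher at both days. Of 5 macrophage markers 2 were higher at day 7 and 4 at day 14 and none lower, while their sum went from 6835 to 8023 CPM to 3857 to 7153 and 5292 to 9323 CPM. Neutrophil markers had 4 of 4 lower at day 7 and 2 at day 14 (sums of 364 to 817, 79.5 to 224 and 116 to 399 CPM), and erythroid markers 3 and 5 of 5 lower (sums of 1300 to 4349, 498 to 1388 and 646 to 1706 CPM). T cell markers summed to 31.2 to 43.3, 18.1 to 48.9 and 12.8 to 22.1 CPM, with 1 of 4 lower at day 14, and alveolar type 2 markers to 21340 to 31070, 14120 to 21670 and 6004 to 17620 CPM, with 2 of 4 lower at day 14. Alveolar type 1 markers summed to 2606 to 3853, 3008 to 3504 and 2766 to 4655 CPM (1 of 4 higher and 1 lower at day 7, 1 higher at day 14), and endothelial markers to 2091 to 2593, 1577 to 2051 and 1175 to 1983 CPM (2 of 4 lower at day 14). B and plasma cell markers summed to 53.5 to 129, 34.7 to 301 and 25.7 to 76.5 CPM (3 of 5 lower at day 14), adipose markers to 19.8 to 68.6, 9.43 to 137 and 1.30 to 3.504 CPM (1 and 5 of 5 lower), and cardiac markers to 21.99 to 250, 25.9 to 586 and 21.9 to 39.4 CPM (1 of 5 lower at day 14). The part of these cells in the rise of cell cycle genes was not tested.

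The set took up 0.0490 to 0.0562% of all counts in the day 0 libraries. It took up 0.107 to 0.132% at day 7, 0.119 to 0.147% at day 14 and 0.0588 to 0.115% at day 21. The day 7 and day 14 ranges lay wholly above day 0, and the lowest day 21 library nearly touched it. Every day 7 library exceeded every day 0 library in 51 of the 55 genes, where this held for 17.6% of all genes. The same held for 49 genes at day 14 (16.7% of all genes) and for 33 genes at day 21 (19.4% of all genes). Without day 0 replicate 4 these were 51, 49 and 34 genes, against 18.8%, 18.1% and 21.3% of all genes. The heat map of all 55 genes by library shows the rise in each role group and its unevenness at day 21.

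**Figure D2:**
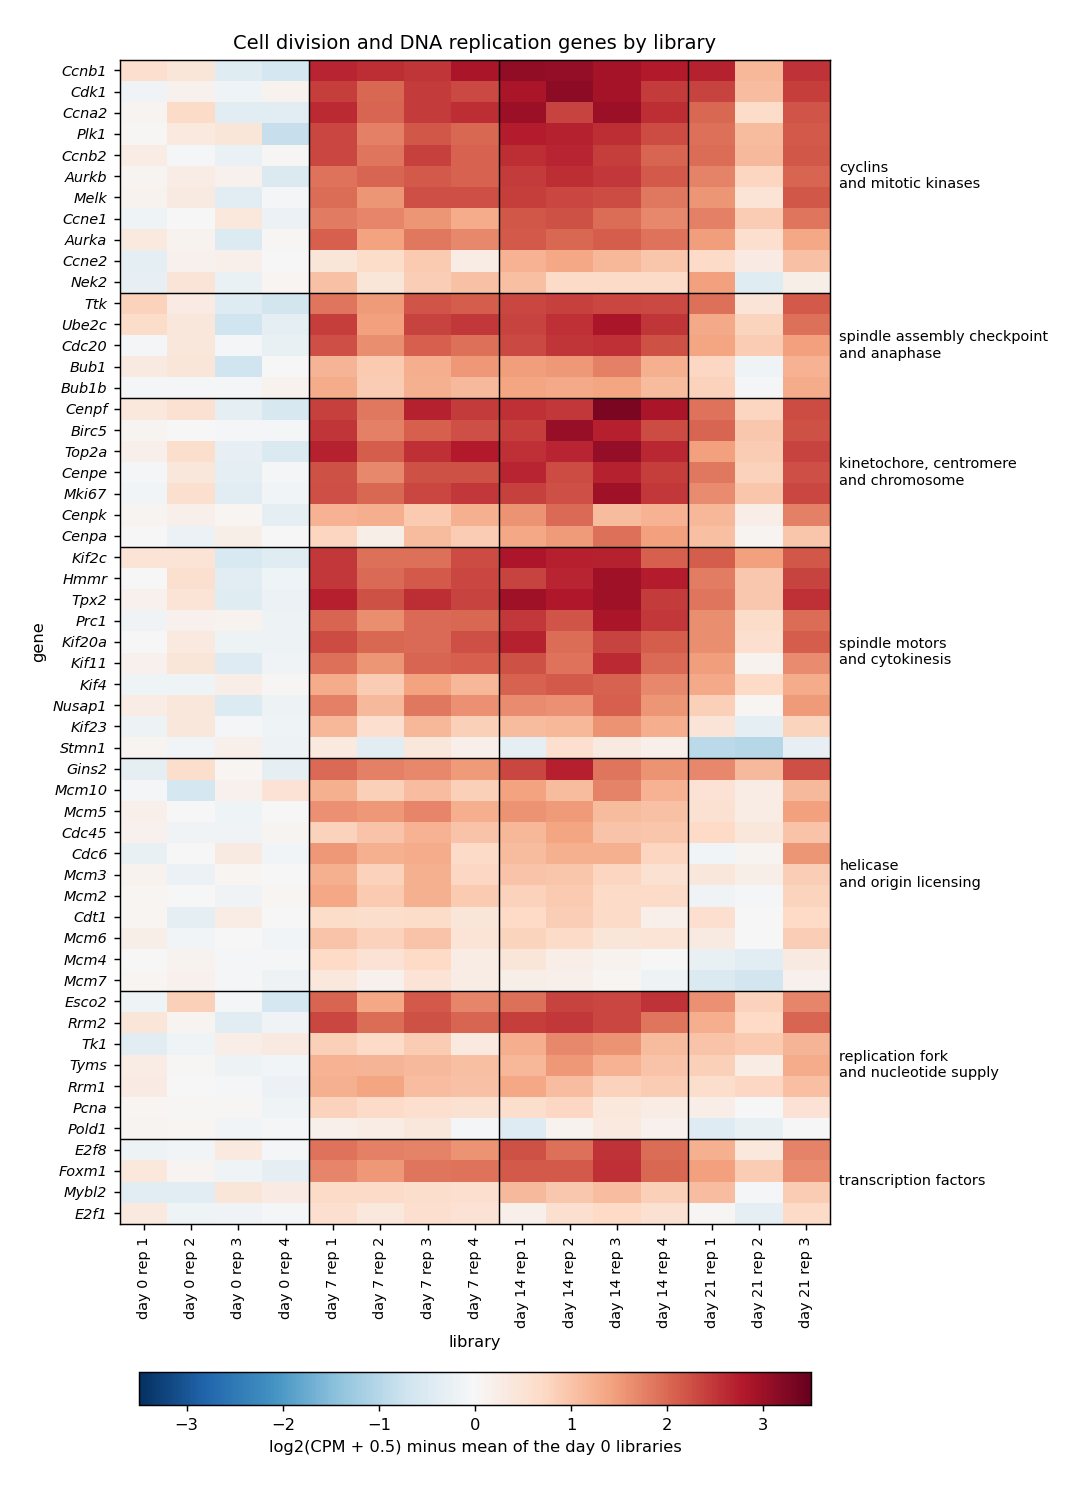
Each row is a gene, each column a library, and colour gives log2(CPM + 0.5) minus the mean of the 4 day 0 libraries, with genes grouped by role and sorted by their change at day 14. The day 7 and day 14 columns are red in most rows, day 21 replicate 2 is the palest of the treated libraries, and Mcm7, Pold1 and Stmn1 stay near 0 or turn blue.

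Mki67 encodes the Ki-67 protein that coats chromosomes in mitosis and is the usual histological marker of cycling cells. It lies at chr7:135689784-135716361 on the minus strand (GRCm38, as are all gene positions here). Its day 0 libraries had 13.3, 21.2, 11.03 and 13.3 CPM, its day 7 libraries 70.5, 58.6, 74.7 and 82.2 CPM, its day 14 libraries 77.6, 70.3, 114 and 80.9 CPM, and its day 21 libraries 45.7, 28.3 and 73.6 CPM. No treated library came down to the day 0 range, although day 21 replicate 2 came close. The log2 change from day 0 was 2.28 ± 0.27 (SE) at day 7 (adjusted p = 5.76e-05), 2.54 ± 0.27 at day 14 (adjusted p = 7.67e-06) and 1.74 ± 0.28 at day 21 (adjusted p = 0.0003).

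Top2a, the topoisomerase that untangles sister chromatids (chr11:98992943-99024189), followed the same course. Its day 0 libraries had 12.3, 16.7, 8.69 and 7.52 CPM, its day 7 libraries 72.6, 48.2, 66.0 and 77.0 CPM, its day 14 libraries 66.0, 71.3, 95.2 and 70.4 CPM, and its day 21 libraries 30.1, 20.5 and 57.5 CPM. Days 7 and 14 overlapped each other and stood well clear of day 0. Log2 changes were 2.54 ± 0.30, 2.74 ± 0.30 and 1.67 ± 0.31 at days 7, 14 and 21, with adjusted p = 6.35e-05, 1.11e-05 and 0.000979.

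Cyclins and mitotic kinases included the largest single change. Of 11 genes, 10 were higher at each of the 3 days, with median log2 changes of 2.24, 2.61 and 1.83. Cdk1, the kinase that drives entry into mitosis (chr10:69335146-69352938), had 2.52, 3.14, 2.47 and 3.06 CPM at day 0. It had 17.0, 12.8, 17.5 and 15.8 CPM at day 7, 23.3, 28.4, 24.4 and 17.4 CPM at day 14, and 16.4, 6.43 and 16.9 CPM at day 21. Even the lowest of these treated libraries was above all 4 day 0 libraries. Its log2 changes were 2.49 ± 0.27, 3.06 ± 0.27 and 2.24 ± 0.28 (adjusted p = 3.96e-05, 2.33e-06 and 4.27e-05).

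Ccnb1, the cyclin B that activates CDK1, had the largest change of all 55 genes at each day. Day 0 libraries had 2.98, 2.60, 1.21 and 1.003 CPM, day 7 libraries 12.4 to 16.1 CPM, day 14 libraries 15.3 to 19.2 CPM and day 21 libraries 14.4, 4.67 and 12.8 CPM. Its log2 changes of 2.84 ± 0.35, 3.17 ± 0.35 and 2.45 ± 0.37 correspond to 7.17-, 9.02- and 5.46-fold. Its partner Ccnb2, cyclin A (Ccna2), Polo-like kinase Plk1 and the Aurora kinases Aurka and Aurkb changed by 2.19 to 2.83 at day 14 on the log2 scale. The G1/S cyclins Ccne1 and Ccne2, which activate CDK2 before replication, changed by 2.32 and 1.27 at day 14. The day 14 call of Ccne2 held in all 18 alternatives, but its day 7 call was lost in 12 of 18 (log2 change 0.48 to 0.73), among them the loss of any day 0 library or of day 7 replicate 1, 2 or 3, and its day 21 call in 6 of 16 (0.48 to 0.88), among them the loss of day 0 replicate 1 or 4 or of day 21 replicate 1 or 3.

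Nek2, a centrosome kinase, was the exception among the kinases and was called at none of the 3 days. Its day 0 libraries had 7.11, 12.1, 7.29 and 9.20 CPM, its day 7 libraries 18.1, 11.9, 16.4 and 18.4 CPM, its day 14 libraries 18.8, 14.1, 14.1 and 14.3 CPM, and its day 21 libraries 24.3, 6.43 and 10.2 CPM. Day 14 lay above day 0 in every library, day 7 overlapped it through replicate 2, and day 21 held both the highest and the lowest value of all 15 libraries. The log2 changes were 0.86 ± 0.31, 0.78 ± 0.31 and 0.61 ± 0.33 (adjusted p = 0.0548, 0.0662 and 0.188). Under DESeq2 it was called at day 7 (log2 change 0.83, adjusted p = 0.0353) and day 14 (0.76, adjusted p = 0.0491), as it also was with no filter on low counts and with the groups compared fitted alone. Its day 21 change turned on single libraries, at 0.90 without replicate 2 (adjusted p = 0.0359) and −0.14 without replicate 1 (adjusted p = 0.746).

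Spindle checkpoint and anaphase genes rose together at days 7 and 14, with all 5 higher and median log2 changes of 2.06 and 2.48. At day 21, 4 of 5 were higher. Bub1 lost its day 7 call with mitochondrial share as a covariate (adjusted p = 0.0679) and gained one at day 21 without replicate 2, and Ube2c lost its day 21 call without replicate 3 (1.03, adjusted p = 0.0512). Ttk, the checkpoint kinase MPS1, had the largest change at day 14, 2.81 ± 0.48 (adjusted p = 0.000444), from 0.279 to 1.62 CPM at day 0 to 5.55 to 5.86 CPM. Bub1b, which encodes the checkpoint protein BUBR1, had the smallest, 1.34 ± 0.21 (adjusted p = 0.000252). Its day 21 libraries had 15.9, 8.65 and 22.8 CPM, and replicate 2 lay inside the day 0 range of 8.58 to 9.64 CPM. Its day 21 call (0.83 ± 0.23, adjusted p = 0.0126) was lost without day 21 replicate 3 (0.42, adjusted p = 0.15) and with days 0 and 21 fitted alone (0.80, adjusted p = 0.0632). Cdc20, the activator of the anaphase-promoting complex, went from 4.96 to 8.16 CPM at day 0 to 30.3 to 37.7 CPM at day 14, a log2 change of 2.48 ± 0.18 (adjusted p = 6.85e-07).

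All 7 kinetochore, centromere and chromosome genes, Mki67 and Top2a among them, were higher at all 3 days, with median log2 changes of 2.28, 2.70 and 1.74. Cenpf, a large kinetochore protein, reached 2.95 ± 0.35 at day 14 (adjusted p = 2.28e-05), from 1.84 to 4.41 CPM at day 0 to 18.6 to 33.3 CPM. Cenpa, the histone H3 variant that marks centromeres, changed least, by 0.80 ± 0.23 at day 7 (adjusted p = 0.0187), 1.61 ± 0.23 at day 14 (adjusted p = 9.50e-05) and 0.78 ± 0.24 at day 21 (adjusted p = 0.0228). Without day 0 replicate 2, 0.70 remained at day 7 (adjusted p = 0.0522) and 0.68 at day 21 (adjusted p = 0.0677), so neither call held. The day 7 call was also lost without day 0 replicate 4 or day 7 replicate 3, and the day 21 call without day 0 replicate 1 or 4, without day 21 replicate 1 or 3 and with limma voom. Cenpk lost its day 7 call with mitochondrial share as a covariate (1.38, adjusted p = 0.0727) and its day 21 call without day 21 replicate 3 (1.07, adjusted p = 0.0765).

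Among spindle motor and cytokinesis genes, 9 of 10 were higher at days 7 and 14 and 8 at day 21. The day 21 call of Nusap1 was lost in 7 of 16 alternatives, among them the replicate block and the loss of day 0 replicate 3 or 4 or of day 21 replicate 1 or 3 (log2 change down to 0.45, adjusted p up to 0.3), and that of Kif11 without day 21 replicate 3 (0.92, adjusted p = 0.0578). Kif2c, a kinesin that depolymerises microtubules at centromeres, had the largest change at day 14, 2.94 ± 0.34 (adjusted p = 1.49e-05), going from 0.634 to 1.81 CPM at day 0 to 6.57 to 11.2 CPM. Tpx2 and Hmmr, both spindle assembly factors, changed by 2.91 and 2.92 at day 14. Stmn1 encodes stathmin, a tubulin-binding protein. It had 67.4, 58.7, 71.9 and 55.5 CPM at day 0, 79.9, 48.0, 83.5 and 71.6 CPM at day 7, 49.6, 94.1, 78.8 and 70.7 CPM at day 14, and 32.4, 31.4 and 51.7 CPM at day 21. Its day 7 and day 14 libraries spread across the day 0 range, and all 3 day 21 libraries lay below it. It was lower at day 21 by the test (log2 change −0.72 ± 0.23, adjusted p = 0.0282), a call lost without day 21 replicate 1 (−0.64, adjusted p = 0.0881), without day 21 replicate 2 (−0.63, adjusted p = 0.0883) and without day 0 replicate 3 (−0.68, adjusted p = 0.0517). At day 0, Stmn1 stood at 33.0 CPM per kb of exon, the highest level per length of the 55 genes, and Cenpk at 0.135 CPM per kb, the lowest.

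Replication genes had smaller median changes on the log2 scale. Of the 22, the numbers called higher at days 7, 14 and 21 were 18, 17 and 11, with median log2 changes of 1.13, 1.25 and 0.78. Without day 21 replicate 3, 7 were higher and Mcm7 was lower at day 21, and the median was 0.36. Without day 0 replicate 4 the numbers higher were 15, 16 and 11. The 28 mitotic genes had 27, 27 and 25 higher, with medians of 2.23, 2.61 and 1.65, and 26, 27 and 23 higher without day 0 replicate 4. Without day 21 replicate 3, 19 mitotic genes were higher at day 21. The plot of log2 changes by day separates the mitotic genes, the MCM2-7 genes and the other replication genes.

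**Figure D3:**
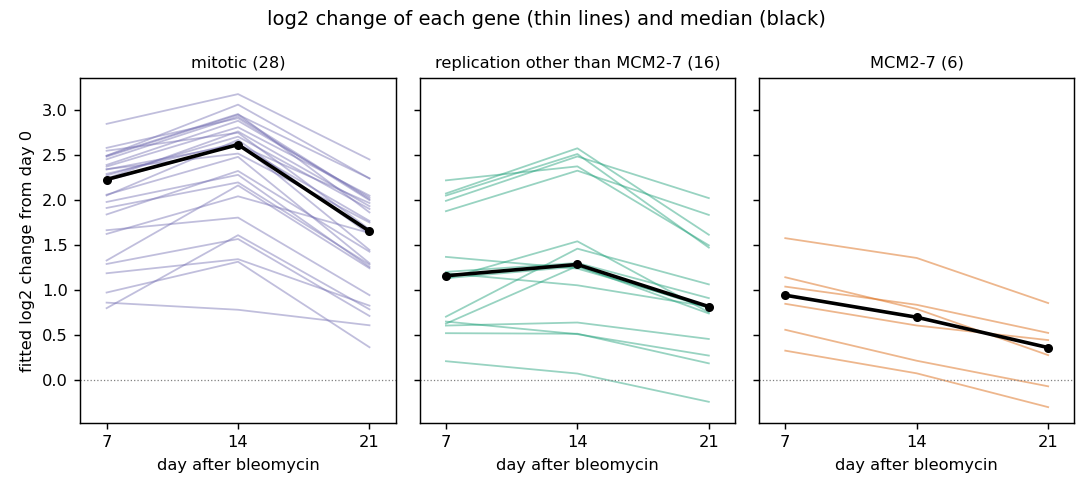
Fitted log2 change from day 0 (vertical axis) at days 7, 14 and 21 for 28 mitotic genes, 16 replication genes outside MCM2-7 and 6 MCM2-7 genes, with a thin line for each gene and the median in black. The mitotic median climbs from 2.23 to 2.61 between days 7 and 14 while that of MCM2-7 goes from 0.94 to 0.70.

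The MCM2-7 genes encode the 6 subunits of the replicative helicase ring. At days 7 and 14, 4 of the 6 were higher, and at day 21 only Mcm5 was, a call lost without day 21 replicate 3. The day 14 call of Mcm6 was lost in 8 of 18 alternatives, among them the loss of day 0 replicate 2, 3 or 4 or of day 14 replicate 1 or 2. Mcm2 (chr6:88883474-88898780) had 16.04, 14.98, 13.8 and 15.9 CPM at day 0 and 39.4, 28.8, 36.7 and 29.0 CPM at day 7. It had 26.8, 29.3, 24.3 and 24.5 CPM at day 14 and 14.0, 14.9 and 26.3 CPM at day 21. Days 7 and 14 were clear of day 0, whereas day 21 had replicates 1 and 2 inside the day 0 range and replicate 3 far above it. Log2 changes were 1.14 ± 0.18 (adjusted p = 0.00048), 0.79 ± 0.18 (adjusted p = 0.00325) and 0.28 ± 0.19 (adjusted p = 0.3), and without day 21 replicate 3 the last became −0.12 (adjusted p = 0.625).

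Mcm5 had the largest change of the ring, 1.57 ± 0.22 at day 7 (adjusted p = 0.000233), from 9.13 to 11.4 CPM to 25.1 to 34.5 CPM. Mcm7 and Mcm4 were called at no day against day 0. Mcm7 had 33.5, 35.0, 30.8 and 27.9 CPM at day 0, 41.4, 35.5, 44.5 and 37.9 CPM at day 7, 36.4, 36.2, 33.4 and 27.8 CPM at day 14, and 22.2, 20.2 and 35.0 CPM at day 21. Its day 7 libraries were all above day 0, its day 14 libraries were not, and 2 of 3 at day 21 were below. Its log2 changes were 0.33 ± 0.15, 0.07 ± 0.15 and −0.30 ± 0.17 (adjusted p = 0.133, 0.748 and 0.195), and without day 21 replicate 3 it was called lower at day 21 (−0.63, adjusted p = 0.00686). Mcm4 had 28.4 to 32.3 CPM at day 0, 35.9 to 48.7 CPM at day 7, 30.3 to 40.5 CPM at day 14 and 22.9 to 37.4 CPM at day 21. Its day 7 change of 0.56 ± 0.15 had an adjusted p of 0.014 but stayed under the fold of 1.5, and without day 7 replicate 4 it passed (0.64).

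Other origin factors were called at 2 or 3 of the days. Gins2, a subunit of the GINS complex that joins the ring in the active helicase, had 0.970, 2.36, 1.46 and 1.003 CPM at day 0 and 5.13 to 11.9 CPM at day 14, a log2 change of 2.48 ± 0.35 (adjusted p = 9.06e-05). Of its exon bases, 67.3% overlap exons of Gse1 on the opposite strand, and the strand setting of the counting is not given in the sources used here, so reads of the pair cannot be told apart. The same holds in part for Kif20a with Cdc23 (29.3% of its exon bases), Ube2c with Tnnc2 (22.8%), Ccne2 with Ints8 (17.4%), Kif4 with Pdzd11 (15.1%) and, at 11.1 to 12.5%, Ccna2, E2f8 and Prc1. Cdc45, the other partner of the ring, changed by 1.13, 1.26 and 0.80 at days 7, 14 and 21 and was called at each, at day 21 not without replicate 3. The licensing factors Cdc6 and Cdt1 and the initiation factor Mcm10 were called at days 7 and 14 and not at day 21. For Cdt1 the day 7 call was lost in 11 of 18 alternatives (log2 change 0.48 to 0.72), DESeq2 and the loss of day 0 replicate 1, 2 or 4 or of day 7 replicate 1, 2 or 3 among them, and its day 14 call in 3 of 18, among them the loss of day 0 replicate 2 or of day 14 replicate 2. The day 7 call of Cdc6 was lost with mitochondrial share as a covariate. Each of the 3 was called at day 21 in 1 of 16 alternatives, Cdc6 without day 21 replicate 1, Cdt1 without day 21 replicate 2 and Mcm10 without day 0 replicate 4.

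Nucleotide supply and fork genes were mixed. Rrm2, the regulated subunit of ribonucleotide reductase (chr12:24708241-24714146), had 6.99, 5.44, 3.81 and 4.63 CPM at day 0, 27.6, 21.1, 25.6 and 22.6 CPM at day 7, 29.4, 30.7, 27.7 and 20.1 CPM at day 14, and 13.1, 8.54 and 22.4 CPM at day 21. All treated libraries were above day 0, and its log2 changes of 2.22 ± 0.26, 2.37 ± 0.26 and 1.49 ± 0.27 (adjusted p = 6.11e-05, 1.11e-05 and 0.000852) were close in size to those of Mki67. Its companion subunit Rrm1 changed by 1.18, 1.05 and 0.81 and thymidylate synthase Tyms by 1.20, 1.30 and 0.91, each called at all 3 days, Tyms at day 21 not without replicate 3. Esco2, the acetyltransferase that locks cohesin at the fork, had the largest change at day 14, 2.57 ± 0.37 (adjusted p = 0.000104).

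Pcna, the sliding clamp (chr2:132249162-132253314), stood at 29.8 CPM per kb at day 0, where the median of the 28 mitotic genes was 0.825 CPM per kb. It had 75.5, 73.3, 72.9 and 64.2 CPM at day 0, 125, 113, 108 and 103 CPM at day 7, 110, 119, 91.8 and 85.9 CPM at day 14, and 84.6, 71.7 and 102 CPM at day 21. Every day 7 and day 14 library was above day 0, and day 21 replicate 2 was inside it. Its log2 changes were small, 0.65 ± 0.13 (adjusted p = 0.00225), 0.51 ± 0.13 (adjusted p = 0.0061) and 0.27 ± 0.14 (adjusted p = 0.146). The day 7 call rested on the fold threshold: without day 0 replicate 4 the change was 0.58, without day 7 replicate 1 it was 0.57, within the libraries of low mitochondrial share 0.57 and with that share as a covariate 0.55, all under 1.5-fold. Pold1, the catalytic subunit of DNA polymerase delta, had 23.97 to 27.9 CPM at day 0 and 18.8 to 33.0 CPM at day 14, and its log2 changes of 0.21, 0.07 and −0.24 had adjusted p of 0.343, 0.758 and 0.306.

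**Figure D4:**
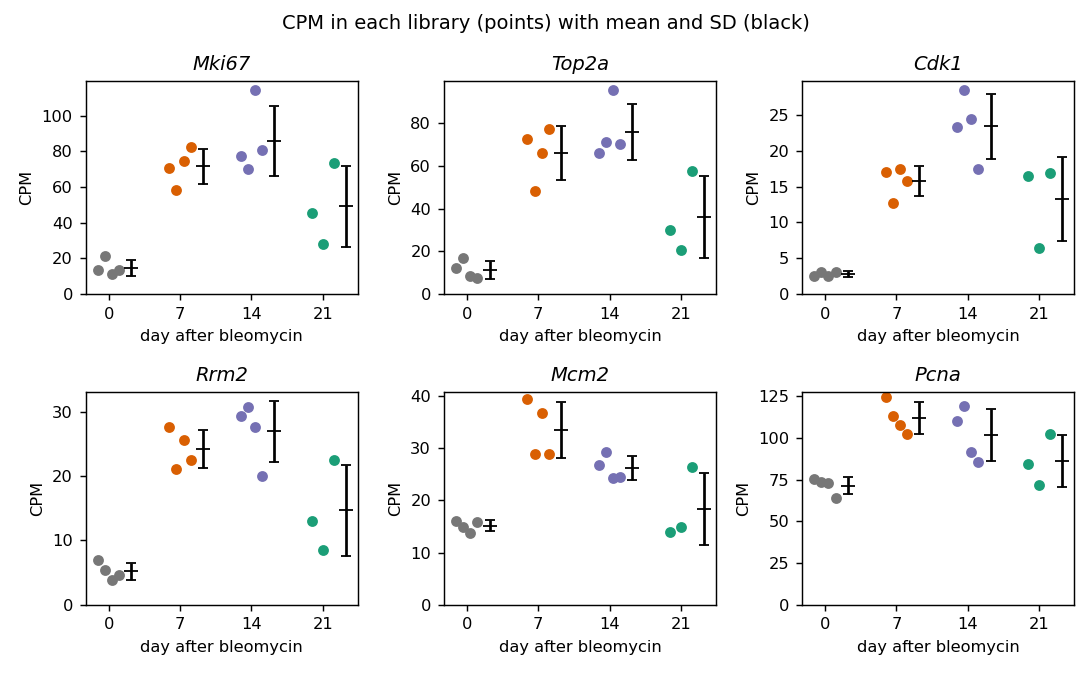
CPM in each library (coloured points) by day after bleomycin for Mki67, Top2a, Cdk1, Rrm2, Mcm2 and Pcna, with the mean and SD in black and each vertical axis starting at 0. Mki67, Top2a, Cdk1 and Rrm2 stand far above day 0 at days 7 and 14, Mcm2 is highest at day 7, and Pcna starts from 64.2 to 75.5 CPM and reaches at most 125 CPM.

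Of the 4 transcription factors, Foxm1 and E2f8 were called at all 3 days. E2f8, an atypical E2F that represses late in S phase, went from 1.16, 1.27, 1.90 and 1.28 CPM at day 0 to 8.26, 6.69, 10.3 and 6.75 CPM at day 14, a log2 change of 2.51 ± 0.30 (adjusted p = 2.09e-05). Foxm1, an activator of mitotic genes, changed by 1.84, 2.32 and 1.42. Mybl2, its partner B-Myb, was called at day 14, by 1.05 (adjusted p = 0.00673), and not at days 7 and 21. The day 14 call was lost within the libraries of high mitochondrial share. A call was gained at day 7 within those of low share, and at day 21 in 4 of 16 alternatives, which were DESeq2, the mitochondrial covariate and the loss of day 0 replicate 3 or day 21 replicate 2. E2f1, an activating E2F, had 13.3, 9.30, 9.58 and 10.1 CPM at day 0, 15.95, 13.7, 15.9 and 15.1 CPM at day 7, 11.9, 15.8, 17.3 and 15.4 CPM at day 14, and 10.8, 8.37 and 16.9 CPM at day 21. Its day 7 libraries were all above day 0, by the least margin over day 0 replicate 1. The log2 changes of 0.52 ± 0.19, 0.51 ± 0.19 and 0.18 ± 0.21 did not pass (adjusted p = 0.0615, 0.0536 and 0.547), and without day 0 replicate 1 those at days 7 and 14 did (0.62 and 0.62, adjusted p = 0.0398 and 0.0343). The day 14 change also passed without day 14 replicate 1 and within the libraries of high mitochondrial share.

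The order of days differed between the lists. Of the 28 mitotic genes, 27 had their highest mean at day 14, the exception being Nek2 at day 7. Of the 22 replication genes, 11 had it at day 14 and 11 at day 7, the latter including all 6 of MCM2-7 with Cdc6, Pcna, Pold1, Rrm1 and E2f1. The share of all genes with their highest mean at each day was not computed. From day 7 to day 14 the fitted log2 change was above 0 in 27 of 28 mitotic genes (median 0.41) and below 0 in all 6 MCM2-7 genes (median −0.25), where the median of all genes was 0.00. Over all 22 replication genes it was above 0 in 11 and below 0 in 11 (median 0.01). With mitochondrial share as a covariate 27 mitotic genes were still above 0 (median 0.60), but the MCM2-7 median shrank to −0.07, with 5 of 6 below 0 and Mcm5 at 0.083. Single genes seldom passed the test. Between days 7 and 14, 3 of 55 genes were called, all higher, against 2.77% of all genes: Cenpa (0.81 ± 0.22, adjusted p = 0.0379), Kif4 (0.83 ± 0.19, adjusted p = 0.0194) and Tk1 (0.76 ± 0.18, adjusted p = 0.0247).

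Kif4, a chromosome-bound kinesin, had 8.15, 5.97, 8.78 and 7.37 CPM at day 7 and 14.1, 14.8, 14.2 and 10.8 CPM at day 14. Tk1, thymidine kinase, had 14.4, 12.8, 14.9 and 10.2 CPM at day 7 and 19.9, 26.5, 24.3 and 17.6 CPM at day 14. For Cenpa these were 16.2, 11.1, 21.0 and 17.9 CPM and 24.97, 27.8, 37.1 and 26.2 CPM. The 2 days did not overlap in any of the 3 genes. Every day 14 library was above every day 7 library in 6 of 28 mitotic and 3 of 22 replication genes, none of them MCM2-7, where this held for 7.9% of all genes. In none of the MCM2-7 genes was every day 14 library below every day 7 library, which held for 8.36% of all genes. Adjusting for mitochondrial share removed all 3 calls and left 0.642% of all genes higher. All 3 were also removed by leaving out day 7 replicate 4 or day 14 replicate 2, and 2 of them were lost without day 7 replicate 2 and without day 14 replicate 3. All 4 day 7 libraries had low mitochondrial shares and 3 of 4 day 14 libraries high ones, so the low set held only 1 day 14 library and gave no comparison within it.

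Within each library, the mitotic mean log2 difference from day 0 minus the MCM2-7 mean was 0.93, 0.74, 0.87 and 1.27 in the day 7 libraries and 1.43, 1.48, 1.85 and 1.61 in the day 14 libraries. At day 21 it was 1.5, 0.71 and 1.08. The day 7 and day 14 values did not overlap, day 21 lay across the day 7 range and the lower part of the day 14 range, and day 0 ran from −0.17 to 0.29. Taken against all 22 replication genes, the difference did overlap between days 7 and 14. It was 0.81, 0.52, 0.77 and 1.08 in the day 7 libraries and 1.07, 0.96, 1.24 and 1.12 in those of day 14. Measured instead as a difference in CPM per kb, the order of the lists at day 7 was the opposite, with a median gain from day 0 of 4.48 CPM per kb for MCM2-7 and 2.18 CPM per kb for mitotic genes. At day 14 these gains were 2.58 and 2.95 CPM per kb, and at day 21 they were 1.26 and 1.24 CPM per kb. Over all 22 replication genes the median gains of 1.40, 1.51 and 0.811 CPM per kb at days 7, 14 and 21 were below the mitotic ones at each day, as on the log2 scale. The MCM2-7 genes started from a median of 6.30 CPM per kb and the mitotic genes from 0.825 CPM per kb. The scatter of library means sets the mitotic mean against that of MCM2-7.

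**Figure D5:**
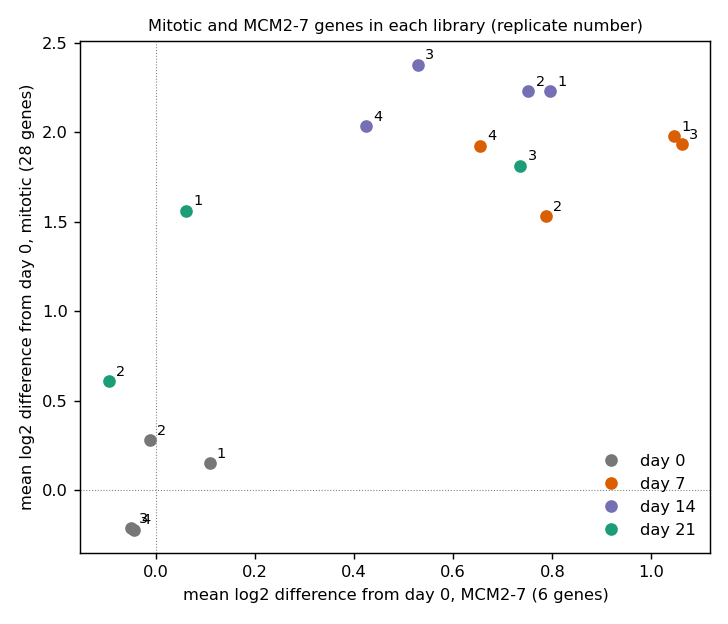
Each point is a library, numbered by replicate and coloured by day, with the mean log2 difference from day 0 of the 6 MCM2-7 genes on the horizontal axis and of the 28 mitotic genes on the vertical axis. Day 14 libraries sit above the day 7 libraries (2.03 to 2.38 against 1.53 to 1.98) and mostly to their left, and day 21 replicate 2 lies nearest to day 0.

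At day 21 all 55 genes were below day 14 in fitted log2 change, with a median of −0.76, from −0.16 for Mcm6 to −1.19 for Ube2c, the ubiquitin-conjugating enzyme of anaphase. None was called by edgeR, where 0% of all 17457 genes were called, and 38 of the 55 had an unadjusted p under 0.05, as had 1714 of all genes. DESeq2 called 7 of the 55, all lower, where 0.279% of all genes were lower, and limma voom called 0 of all genes. Without day 21 replicate 2 the median was −0.49, and 54 of 55 genes were below day 14. Against day 7, 5 of 55 were lower, against 4.34% of all genes. Chosen after their values were seen, these were Cdc20 (−0.76 ± 0.19, adjusted p = 0.0188), Stmn1 (−0.88 ± 0.23, adjusted p = 0.0246), Mcm2 (−0.86 ± 0.19, adjusted p = 0.0119), Mcm4 (−0.63 ± 0.16, adjusted p = 0.0223) and Mcm7 (−0.63 ± 0.17, adjusted p = 0.0266). Without day 21 replicate 3, 21 genes were lower than at day 7, against 5.09% of all genes, and adjusting for mitochondrial share left 0, against 2.63% of all genes.

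The 3 day 21 libraries were ordered alike in most genes. Replicate 2 was the lowest in 51 of 55 and replicate 3 the highest in 49. Replicate 2 reached no higher than the day 0 maximum in 22 genes, replicate 1 in 8 and replicate 3 in 4. The shares of all genes ordered in these ways were not computed, so the counts are not read as particular to the set. Without replicate 2, 44 genes were higher than at day 0 (11.3% of all genes), and without replicate 3, 29 were (10.1% of all genes). Macrophage markers (5 of 5 over 1 CPM in every day 0 library) summed to 4564, 3927 and 6998 CPM in replicates 1, 2 and 3, T cell markers (4 of 4) to 14.7, 7.63 and 23.0 CPM, and fibroblast markers (5 of 5) to 7254, 3571 and 6306 CPM. Of the 5 macrophage markers 3 were higher than at day 0 by the test and none lower, of the 5 fibroblast markers 3 were higher, and of the 4 T cell markers 1 was lower. Lower by the test at day 21 were also all 4 alveolar type 2, all 4 neutrophil and all 5 erythroid markers, 4 of 5 adipose, 3 of 5 B and plasma cell (1 higher), 1 of 4 alveolar type 1 (1 higher) and 1 of 4 endothelial markers, and no cardiac marker was called, where 12.4% of all genes were higher and 10.1% lower. Alveolar type 2 markers (4 of 4 over 1 CPM in every day 0 library) summed to 3692, 7880 and 6000 CPM, with the highest value in replicate 2. The corresponding day 0 ranges were 6835 to 8023, 31.2 to 43.3, 1094 to 1551 and 21340 to 31070 CPM. Cardiac markers summed to 700, 15.2 and 21.9 CPM and were high in replicate 1 alone. The part of these cell types in the levels of cell cycle genes was not tested.

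Among promoters, the 7 replication genes with a CHR word had median log2 changes of 1.57 and 1.46 at days 7 and 14, and the 11 without it 0.85 and 0.64. The 20 mitotic genes with a CHR word had 2.28 and 2.68, and the 4 without it 1.45 and 1.68. For E2F words the 7 replication genes with one had 0.85 and 0.64 and the 11 without 1.14 and 1.30. For the CCAAT box the 21 mitotic genes with one had 2.06 and 2.61 and the 3 without 2.39 and 2.88, and the 11 replication genes with one had 1.13 and 1.05 and the 7 without 0.70 and 1.24. These are descriptions over few genes, with no test.

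Further cell cycle genes outside the set were listed by family, and 113 of 114 were tested, Fen1 not. Of 29 further kinetochore and spindle genes, 21, 25 and 24 were higher at days 7, 14 and 21 and none was lower. Of all genes tested, 8.78%, 12% and 12.4% were higher at these days. Ckap2, a spindle microtubule protein, had the largest change at day 14, 3.65 ± 0.21 (adjusted p = 8.61e-08), from 1.57 ± 0.32 CPM (SD, n = 4) to 19.7 ± 2.33 CPM (SD, n = 4). Of 32 tested origin and fork genes 13, 15 and 11 were higher, against the same shares of all genes, and none lower. They were led by Pole, the leading-strand polymerase (1.94 ± 0.24 at day 14, adjusted p = 3.38e-05).

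Of 17 condensin and cohesin genes 8, 8 and 7 were higher, led by the condensin subunit Ncapg (3.19 ± 0.31 at day 14, adjusted p = 4.57e-06). The securin gene Pttg1 was the 1 lower at each day, from 40.4 ± 8.13 CPM (SD, n = 4) at day 0 to 17.8 ± 2.70 CPM (SD, n = 3) at day 21 (log2 change −1.18 ± 0.17, adjusted p = 0.000136). Background shares of lower genes were 7.36% at day 7, 11.2% at day 14 and 10.1% at day 21, and those of higher genes 8.78%, 12% and 12.4%. Of 12 subunits and activators of the anaphase-promoting complex, none was called at any of the 3 days, with medians of 0.15, 0.17 and 0.13.

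Of 6 G1 cyclins and kinases, Ccnd1, cyclin D1, was the 1 higher at each day (1.13 ± 0.21, 0.73 ± 0.21 and 0.73 ± 0.23). Of 10 genes of the RB family and the DREAM complex, none was higher, and 1, 2 and 1 were lower at days 7, 14 and 21, with the DREAM subunit Lin52 lower at each (−0.82 ± 0.11 at day 14, adjusted p = 7.67e-05). In lists this short such counts are near the shares of all genes called at these days, 8.78%, 12% and 12.4% higher and 7.36%, 11.2% and 10.1% lower, and no result about either family is read from them. Of 7 CDK inhibitors, 2, 4 and 3 were higher and 1, 2 and 1 lower at days 7, 14 and 21. Cdkn2a, the locus of p16 and p19ARF, which halt the cycle, went from 0.127 to 0.836 CPM at day 0 to 0.725 to 1.07 CPM at day 7, 1.75 to 5.10 CPM at day 14 and 1.88 to 4.76 CPM at day 21. Its day 14 and day 21 libraries were all above day 0, with log2 changes of 2.82 ± 0.50 (adjusted p = 0.000621) and 3.10 ± 0.52 (adjusted p = 0.000473), while at day 7 the change was 1.09 ± 0.52 (adjusted p = 0.137). The lowest day 0 value of Cdkn2a was under that of Ttk, 0.279 CPM from 5 reads, so these changes start from few reads. Chosen after their values were seen, 2 more inhibitors are given. Cdkn1a, the p53 target p21, was higher at all 3 days, from 116 ± 34.4 CPM (SD, n = 4) at day 0 to 418 ± 93.6 CPM (SD, n = 4) at day 7, a log2 change of 1.84 ± 0.21 (adjusted p = 4.82e-05), and by 1.52 and 1.39 at days 14 and 21. Cdkn1b, p27, was lower at all 3 days, with log2 changes of −0.79, −0.70 and −0.82.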

How the data were processed

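Bulk RNA-seq of whole mouse lung was analysed from raw gene counts deposited by the authors, who trimmed reads with TrimGalore, aligned them to mm10 (GRCm38) with HISAT2 2.1.0 and counted reads per gene with HTSeq 0.6.0, leaving out multi-mapped reads. Near-identical copies are therefore undercounted. Strand setting and annotation release are not given in the sources used here. Of the Ensembl identifiers, 73 matched no GENCODE M21 gene. Total counts per library were 15652008 to 18020661, and the common biological coefficient of variation was 22.8%.

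Groups followed the labelled day. All 15 libraries entered 1 edgeR 4.0.16 quasi-likelihood fit (R 4.3.3) with filterByExpr and TMM scaling, and genes were called at a Benjamini-Hochberg adjusted p under 0.05 over all 17457 genes and a fold change over 1.5. Log2 changes use a prior count of 2. The test was checked on simulated counts. DESeq2 1.42.0, limma 3.58.1 voom, other scalings, filters, covariates and left-out libraries were alternatives. Library means used log2(CPM + 0.5). The genes and lists were chosen with earlier results of these data known. Genes named in full were 6 fixed ones, the largest and smallest change of each role at day 14, those called at no day and those called between consecutive days. In each further family, the called gene with the largest change at day 14 was named.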

Additional observations from a re-analysis of the deposited data

Results flagged for a closer look

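In 8 of 165 groups of 4 libraries (4.85%) 1 library lay far from the others by Dixon's criterion, and chance flags about 1 in 20 groups. Day 7 replicate 2 accounted for 3 of the 8, with 9.76 CPM for Cenpe (others 14.5 to 14.7), 12.9 CPM for Prc1 (others 16.9 to 17.6) and 10.2 CPM for Ube2c (others 19.8 to 21.4). The other far libraries were day 0 replicate 4 for Bub1b (9.64 CPM, others 8.58 to 8.69), day 0 replicate 3 for E2f8 (1.90 CPM, others 1.16 to 1.28), day 7 replicate 4 for Cdt1 (11.1 CPM, others 12.6 to 12.9), day 14 replicate 3 for Nusap1 (19.6 CPM, others 13.4 to 14.5) and day 14 replicate 1 for Nek2 (18.8 CPM, others 14.1 to 14.3).

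By edgeR's test of the later day against the earlier one, 3 of 55 genes were higher at day 14 than at day 7 (2.77% of all genes) and 5 of 55 lower at day 21 than at day 7 (4.34% of all genes). All 8 calls were lost with mitochondrial share as a covariate and under glmTreat. From day 7 to day 14 the log2 change was 0.81 for Cenpa, 0.83 for Kif4 and 0.76 for Tk1. From day 7 to day 21 it was −0.76 for Cdc20, −0.86 for Mcm2, −0.63 for Mcm4, −0.63 for Mcm7 and −0.88 for Stmn1.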

How the results depend on the processing

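Calls against day 0 stayed within 1.5 times under every alternative run (37 to 49 at day 7, 42 to 49 at day 14, 30 to 44 at day 21 with both directions), and the replicate block gave 48, 48 and 39. Replicate numbers were not taken to pair the libraries. Correlations of same-numbered deviations ran from −0.244 to 0.397, and some libraries but not all were closest to their own number. Such correlations cannot settle whether libraries were paired. The counts of 3 genes from day 7 to 14 and 5 from day 7 to 21 both became 0 under glmTreat and 0 with the mitochondrial covariate. They ranged from 0 to 3 and from 1 to 21 on leaving out 1 library, and the second was 3 with the 2 groups alone and 8 with limma voom. From day 14 to 21 the count was 2 without a filter, 7 with DESeq2 and 0 to 3 on leaving out 1 library. With the covariate, the replication median at day 7 was 0.98 and the mitotic median from day 7 to 14 was 0.60. Within libraries of like mitochondrial share, the mitotic median at day 7 was 1.89 and the replication median at day 14 was 1.12. Leaving out 1 library, the replication medians ranged from 0.999 to 1.16, 1.13 to 1.32 and 0.36 to 0.90 and the mitotic median at day 7 from 1.99 to 2.29. Changes that were not called and reversed without 1 library are given by their ranges over left-out libraries: at day 21 Mcm2 −0.12 to 0.41, Nek2 −0.14 to 0.90, E2f1 −0.18 to 0.35 and Mcm4 −0.36 to 0.027, and at day 14 Mcm7 −0.0039 to 0.15 and Pold1 −0.035 to 0.19. The causes were not tested. Depth limits genes near the lowest count of the 55, 5 reads for Ttk, and outside the set Cdkn2a.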
